A study of Bos taurus with 56 samples.

Results

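AMP-activated protein kinase (AMPK) is built of a catalytic α, a scaffold β and a nucleotide-sensing γ subunit, and its genes were followed through the bovine oviduct epithelium together with STK11, which encodes the upstream kinase LKB1. The members were chosen by gene symbol. They are PRKAA1 and PRKAA2 for α, PRKAB1 and PRKAB2 for β, PRKAG1, PRKAG2 and PRKAG3 for γ, and STK11. Of these 8 symbols, 7 had a row among the 31903 genes of the read-count table, and PRKAG2 was not analysed here. All 7 passed the filter on low counts over the 56 libraries.

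AMPK is switched on when AMP and ADP rise relative to ATP, through nucleotide binding to γ and phosphorylation of α by LKB1 or by the calcium-dependent kinase CAMKK2. The active kinase slows fatty acid, sterol and glycogen synthesis and favours fatty acid oxidation, glucose uptake and autophagy. LKB1 works in a complex with the pseudokinase STRADA and the scaffold CAB39, and it also phosphorylates the AMPK-related kinases of the MARK, SIK, BRSK and NUAK families. In many tissues α1, β1 and γ1 are the common isoforms, while γ3 is known mainly from skeletal muscle.

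Scraped epithelial cells of the ampulla and of the isthmus were sequenced for 14 Holstein animals on Day 3 after synchronized estrus, from the oviduct on the side of the corpus luteum (CL, ipsilateral) and from the opposite one (contralateral). These were 5 nulliparous heifers, 5 post-partum non-lactating cows that were never milked after calving, and 4 post-partum lactating cows. The cows were at about 60 days post-partum when their cycles, like those of the heifers, were synchronized with progesterone, a prostaglandin analogue and a gonadotrophin-releasing hormone analogue. Heifers differ from both cow groups in never having calved as well as in metabolic status, and these cannot be told apart. Each animal gave 4 libraries, so that there were 12 conditions of 4 or 5 libraries. Animals are named by group and a letter, which has no meaning beyond the name.

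Levels are given in CPM, the read counts brought to a common library total after scaling by the trimmed mean of M-values (TMM). The counts on genes ranged from 1901454 to 6836850 per library, and 3 counts corresponded to between 0.439 and 1.58 CPM. The 5 epithelial markers (EPCAM, CDH1, KRT8, KRT18, KRT19) were present in every library, with a summed level of 846 to 1860 CPM. In 4 libraries of the ipsilateral ampulla the animal was in doubt. A pair of columns carried the number of an animal of another group, and the libraries that bear the numbers of heifer B and of non-lactating cow B each came nearer to the other animal's profile, with r = 0.854 and 0.853 against 0.286 and 0.337 with their own. For the members, calls, fold changes, animal counts and shares that rest on the ipsilateral ampulla are therefore given with and without these 4 libraries. This leaves 10 animals with an undoubted ipsilateral ampulla. For genes of the AMPK pathway, the numbers called are given both ways. Single pathway genes, cell markers, median fold changes, and side tests within or between metabolic groups include the 4 libraries unless stated otherwise. Ranges, the order of conditions and correlations over the 56 libraries include them as well. In bulk RNA, fewer cells of a type and less RNA per cell cannot be told apart.

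The catalytic subunit genes were both read in every library. PRKAA1, the widely expressed α1, lay at 58.2 CPM at its lowest, 140.6 at the median and 181.1 at its highest, with 256 to 1026 counts per library. PRKAA2, the α2 isoform, lay at 12.1, 19.97 and 31.7 CPM, with 38 to 150 counts. The condition means of PRKAA1 spanned only 1.30 times, from 118.3 ± 18.1 CPM in the ipsilateral ampulla of heifers to 153.7 ± 19.2 in their contralateral isthmus (SD, n = 5 each). Those of PRKAA2 spanned 1.61 times, and its highest and lowest conditions were the contralateral isthmus and the contralateral ampulla of heifers, at 25.9 and 16.1 CPM. When the 12 conditions were ordered by mean, all 11 steps between neighbours were within the larger of the 2 SDs for both genes.

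The β subunits hold α and γ together and carry a glycogen-binding domain. PRKAB1 ranged from 24.4 CPM over a median of 39.1 to 65.7. Its condition means ran from 31.6 CPM in the contralateral isthmus of heifers to 47.6 in the contralateral ampulla of non-lactating cows, a ratio of 1.51. PRKAB2 was read least often, with 1 to 52 counts, and ranged from 0.221 over 5.32 to 10.3 CPM. Its single count was in the contralateral ampulla of lactating cow B, whose group otherwise held 5.18, 6.56 and 6.44 CPM. Counting error therefore weighs more on PRKAB2 than on the other members. Of the 11 steps between ordered conditions, 10 for PRKAB1 and 11 for PRKAB2 were within the larger SD.

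The γ subunits bind AMP, ADP and ATP. PRKAG1 had 12.1, 17.6 and 24.2 CPM as its lowest, median and highest value and a ratio of 1.34 between its extreme condition means. PRKAG3 had 48 to 273 counts and 18.2, 33.6 and 56.7 CPM. Its condition means spanned 1.84 times, the widest of the 7, and both extremes were in heifers on the ipsilateral side, at 40.8 ± 5.92 CPM in the ampulla and 22.2 ± 3.07 in the isthmus (SD, n = 5 each). Without the doubted library the former was 41.3 ± 6.71 CPM (SD, n = 4). For PRKAG3, 9 of 11 steps were within the larger SD. STK11 lay at 34.0, 49.4 and 74.1 CPM, with its highest mean in the ipsilateral isthmus of heifers (61.9 CPM) and its lowest in the ipsilateral ampulla of lactating cows (39.4 CPM), and none of its 11 steps exceeded the larger SD. Transcript lengths were not used, so these values compare conditions within a gene and not one gene with another.

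**Figure D1:**
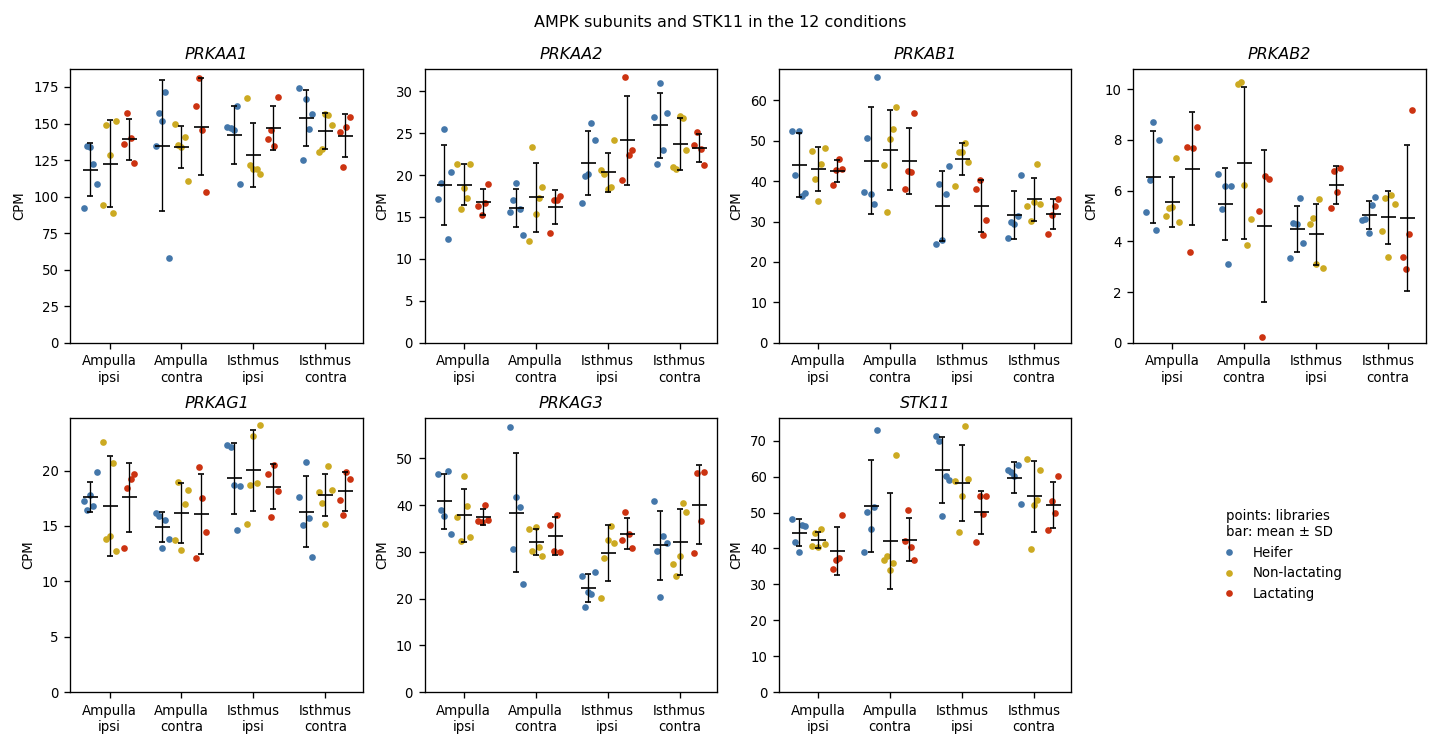
CPM (y axis, from 0) of the 7 members in ampulla and isthmus on both sides (x axis), with each library as a point coloured by metabolic group and the mean ± SD as black bars. On the contralateral side PRKAA2 and STK11 sit higher and PRKAB1 lower in the isthmus than in the ampulla, and the heifer points of PRKAG3 in the ipsilateral isthmus lie between 18.2 and 25.7 CPM, while those of lactating cows lie between 30.8 and 38.5.

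PRKAG3 was read in every library while 5 of the 6 skeletal muscle markers in the table were near 0. The sarcomere and creatine kinase genes ACTA1, MYH1, MYH2, CKM and TNNT3 had a median of 0 CPM, with 54, 29, 16, 39 and 4 counts in all 56 libraries together. The exception was MYH7, a slow and cardiac myosin, at 24.6 to 109 CPM. The gene before PRKAG3 in the RefSeq gene order of assembly ARS-UCD2.0 is CYP27A1, and across the 56 libraries its log2 CPM correlated with PRKAG3 at r = -0.394. The next gene on the other side, WNT6, had a median of 0 CPM. These libraries were counted with strand and on another assembly, so no coordinates are given.

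The region comparison asks how the isthmus, where sperm are stored, differs from the ampulla, where fertilization takes place. Each gene was tested by edgeR's quasi-likelihood F test with the 3 metabolic groups pooled and the group as a term, with the Benjamini-Hochberg adjustment over all genes tested, and a gene was called at an adjusted p under 0.05. Here the tests treated the 28 libraries of a fit as separate samples although each animal gave a pair of them. On the ipsilateral side, 3 of 7 members were called, STK11 as higher and PRKAG3 and PRKAB2 as lower in the isthmus. On the contralateral side, 3 of 7 were called again, with PRKAA2 and STK11 higher and PRKAB1 lower. Without the 4 doubted libraries 4 of 7 were called on the ipsilateral side, PRKAB1 being added as lower, while the share over all genes was 46.8% of 15438. That 4 of 7 was above this share, a difference that was not tested. With all libraries, 50.3% of 15276 genes were called on the ipsilateral and 43.5% of 15387 on the contralateral side. In these fits the members were called no more often than genes at large. The median log2 fold change of the 7 members was 0.12 and 0.09, against -0.02 and -0.01 over all genes.

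Among the catalytic subunits, PRKAA2 was called between regions, on the contralateral side only. Its condition means in the isthmus of either side, at 20.3 CPM or more, were all above those in the ampulla, at 18.9 CPM or less. Its lowest, median and highest values were 20.7, 23.3 and 31.0 CPM in the contralateral isthmus and 12.1, 17.0 and 23.4 in the contralateral ampulla. The ranges overlapped little, and the isthmus value was the higher one in 13 of 14 animals. The fitted log2 fold change was 0.55 (SE 0.097, edgeR adjusted p = 2.69e-05). On the ipsilateral side the values were 16.7, 20.3 and 31.7 CPM in the isthmus and 12.3, 17.9 and 25.4 in the ampulla, and the log2 fold change of 0.23 (SE 0.10) was not called (edgeR adjusted p = 0.0605), nor was the 0.21 (SE 0.11) found without the doubted libraries (edgeR adjusted p = 0.141). PRKAA1 differed by 0.12 (SE 0.086) and 0.09 (SE 0.11) on the log2 scale and was called on neither side. Its ipsilateral value without the doubted libraries was 0.22 (SE 0.093, edgeR adjusted p = 0.0541), also not called.

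Of the β subunits, PRKAB1 was lower in the contralateral isthmus in all 14 animals. There it lay at 25.9, 32.7 and 44.2 CPM, and in the contralateral ampulla at 32.5, 43.2 and 65.7. The log2 fold change was -0.48 (SE 0.11, edgeR adjusted p = 4.37e-04). On the ipsilateral side it was -0.22 (SE 0.096, edgeR adjusted p = 0.0548), with 9 of 14 animals lower, and it was called without the 4 doubted libraries (-0.27, SE 0.10, edgeR adjusted p = 0.0339), with 7 of 10 animals lower. PRKAB2 was called on the ipsilateral side, at 2.95, 4.83 and 6.88 CPM in the isthmus against 3.57, 5.90 and 8.70 in the ampulla. Its log2 fold change was -0.38 (SE 0.15, edgeR adjusted p = 0.0307), with 12 of 14 animals lower. It was -0.45 without the doubted libraries (SE 0.15, edgeR adjusted p = 0.0158), with 9 of 10 lower. Leaving out 1 animal ended this call for 6 of the 14 animals, heifers B, C and E, lactating cows A and C and non-lactating cow C, with an edgeR adjusted p of up to 0.0794.

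PRKAG3 was lower in the ipsilateral isthmus, at 18.2, 29.8 and 38.5 CPM, than in the ipsilateral ampulla, at 32.4, 37.5 and 47.2. It was lower in 13 of 14 animals, and the log2 fold change was -0.50 (SE 0.10, edgeR adjusted p = 1.24e-04). The decrease per animal had a median of -0.90 on the log2 CPM scale in the 5 heifers, -0.17 in the 5 non-lactating cows and -0.21 in the 4 lactating cows. With these libraries left out the medians were -0.85, -0.16 and -0.24 in 4, 3 and 3 animals. Whether the medians differ was not tested. On the contralateral side the log2 fold change was -0.03 (SE 0.12), with 9 of 14 animals lower. PRKAG1 differed by 0.13 and 0.14 (SE 0.10 each) and was not called, its ipsilateral value being 0.09 (SE 0.11) without the doubted libraries.

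With all libraries, STK11 was the only member called on both sides. Without the 4 doubted libraries PRKAB1 was called on both sides as well. In the ipsilateral isthmus STK11 lay at 41.7, 56.8 and 74.1 CPM, and in the ipsilateral ampulla at 34.4, 41.6 and 49.3. All 14 animals had the higher value in the isthmus, and the log2 fold change was 0.41 (SE 0.073, edgeR adjusted p = 2.68e-05). On the contralateral side 12 of 14 animals were higher and the log2 fold change was 0.28 (SE 0.10, edgeR adjusted p = 0.0244). This second call was lost when lactating cow D, non-lactating cow A or non-lactating cow D was left out, with an edgeR adjusted p of up to 0.0706. The calls of STK11 and PRKAG3 on the ipsilateral side were kept without the 4 doubted libraries, at log2 fold changes of 0.41 (SE 0.087, edgeR adjusted p = 4.06e-04) and -0.50 (SE 0.11, edgeR adjusted p = 6.17e-04). Of the 10 animals left, STK11 was higher in the isthmus in 10 and PRKAG3 lower in 10.

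**Figure D2:**
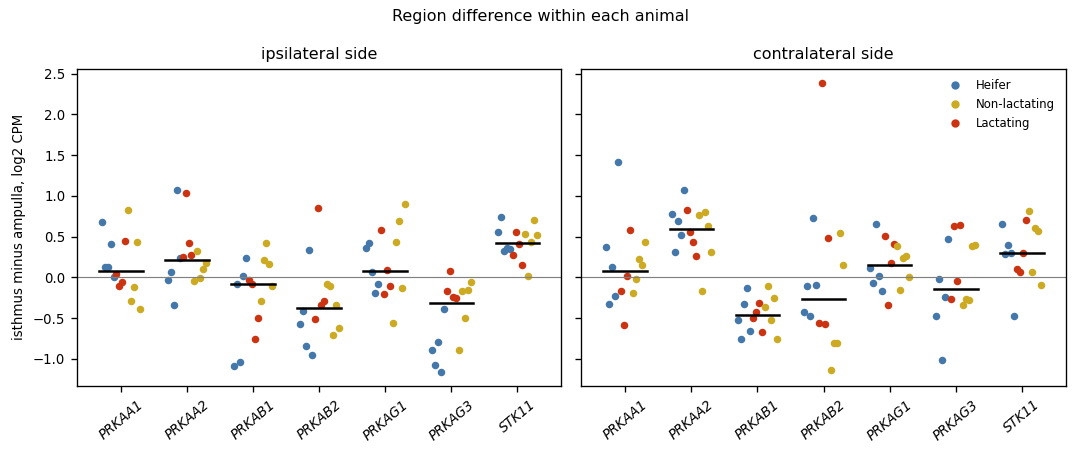
Difference in log2 CPM between isthmus and ampulla (y axis) within each of the 14 animals for the 7 members (x axis), with ipsilateral values in the left and contralateral values in the right panel, a point per animal coloured by metabolic group and the median as a black line. STK11 lies above 0 in 14 of 14 animals on the ipsilateral side and PRKAB1 below 0 in 14 of 14 on the contralateral side.

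The cell markers also moved between the regions. The summed ciliated markers had a median of 4410 CPM in the ampulla and 3680 in the isthmus on the ipsilateral side, and of 4830 and 3430 CPM on the contralateral side. Of the 6 ciliated markers, 5 were called lower in the isthmus on the ipsilateral and 6 on the contralateral side. The 5 epithelial markers were all called higher in the ipsilateral isthmus and 2 of them in the contralateral isthmus. The 4 secretory markers were mixed on the ipsilateral side. MSLN had medians of 159 CPM in the ampulla and 55 in the isthmus, PAX8 121 and 111, OVGP1 9520 and 11000, and CRISP3 7.07 and 8.85. OVGP1 ranged from 153 to 15000 CPM in the ipsilateral isthmus. The summed smooth muscle markers had ipsilateral medians of 16.5 CPM in the ampulla and 54.1 in the isthmus, the summed endothelial markers 119 and 18.2. Only MYH11 carried the smooth muscle rise, at 1.08 and 44.7 CPM. ACTA2 (13 and 8.39) and DES (1.91 and 1.32) were lower in the isthmus, and CNN1 and TAGLN had medians of 0. Most of the endothelial fall was KDR, at 107 and 10.9 CPM, while PECAM1 had 3.74 and 1.79 and VWF 4.3 and 4.1. Across the 56 libraries, log2 CPM of STK11 correlated with the epithelial sum at r = 0.673, the smooth muscle sum at 0.599 and the endothelial sum at -0.566. For PRKAA2, r was 0.567 with smooth muscle, -0.629 with endothelium, -0.506 with the ciliated and -0.512 with the skeletal muscle sum. PRKAB1 correlated with the ciliated sum at 0.532 and with the skeletal muscle sum at 0.559. PRKAG3 correlated with the smooth muscle sum at -0.536. By the medians, MYH11 made up most of the smooth muscle sum in the isthmus, KDR most of the endothelial sum and MYH7 most of the skeletal muscle sum. The r values with these sums may therefore reflect single genes and need not reflect the content of a cell type. These libraries share animals and regions, and the part of the cell make-up in the region differences was not tested.

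The side comparison asks what differs between the oviduct next to the CL and the opposite one. With the metabolic groups pooled, 1 of 7 members was called in the isthmus and 0 of 7 in the ampulla, against 28.4% of 15031 and 4.99% of 15270 genes. The main tests between sides also treated the libraries of an animal as separate samples. In the ampulla the smallest unadjusted p of a member was 0.119, so none reached an unadjusted p of 0.05 either, and DESeq2 called none. Without the doubted libraries the ampulla again had 0 of 7 called by edgeR, with a smallest unadjusted p of 0.105, against 2.43% of 15464 genes. PRKAG3 was the gene called in the isthmus. It lay at 20.4, 32.7 and 47.0 CPM on the contralateral side against 18.2, 29.8 and 38.5 on the ipsilateral side, and the groups overlapped widely. The log2 fold change was -0.29 (SE 0.11, edgeR adjusted p = 0.0395), with 10 of 14 animals lower on the ipsilateral side. The call was lost without any of 8 single animals (heifers A, B, D or E, lactating cows B, C or D, non-lactating cow E), where the edgeR adjusted p reached 0.101. PRKAA2 had a log2 fold change of -0.18 between sides of the isthmus (SE 0.084, edgeR unadjusted p = 0.0464). It was not called (edgeR adjusted p = 0.122). In the same comparison 3 of 5 epithelial and 1 of 6 ciliated markers were called higher and 1 of 3 endothelial markers lower on the ipsilateral side, and their part in the PRKAG3 difference was not tested.

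Within single metabolic groups, no member was called between sides. The share of all genes called was 10% in the isthmus of heifers, 5.11% in that of non-lactating cows and 0.187% in that of lactating cows, and 0, 0.0947% and 0% in the ampulla. PRKAG3 in the isthmus of heifers A to E read 24.9, 18.2, 21.5, 21.0 and 25.7 CPM on the ipsilateral side and 40.8, 30.2, 20.4, 33.5 and 31.9 on the contralateral side. Heifers A, B, D and E had the lower value near the CL and heifer C did not. The log2 fold change was -0.52 (SE 0.18, unadjusted p = 0.0119, edgeR adjusted p = 0.0805). In non-lactating cows A to E, PRKAB1 read 38.8, 47.3, 47.1, 49.3 and 44.8 CPM in the ipsilateral isthmus and 34.0, 30.0, 34.7, 44.2 and 34.4 in the contralateral isthmus. All 5 cows had the higher value near the CL, and the log2 fold change of 0.35 (SE 0.12, unadjusted p = 0.0143) was not called (edgeR adjusted p = 0.122).

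For PRKAG3 the side difference of the ampulla was not called and had the other sign. There 12 of 14 animals had the higher value on the ipsilateral side, with a fitted log2 fold change of 0.16 (SE 0.099, edgeR adjusted p = 0.402). With the doubted libraries left out these were 8 of 10 animals and 0.15 (SE 0.11, edgeR adjusted p = 0.540). The difference in side effect between isthmus and ampulla was -0.44 (SE 0.16, unadjusted p = 0.0067) and was not called (edgeR adjusted p = 0.0807), while 5.97% of 16060 genes were. This fit took all libraries of an animal, from both regions and sides, as separate samples. For PRKAA2 the same term was -0.31 (SE 0.13, edgeR adjusted p = 0.172). The terms without the doubted libraries were -0.45 (SE 0.17, edgeR adjusted p = 0.124) and -0.34 (SE 0.14, edgeR adjusted p = 0.177), and 3.83% of 16282 genes were called. The side effect did not differ detectably between metabolic groups for any member or any gene in either region (edgeR, 0% called, with 176 genes of the ampulla and 308 of the isthmus at an unadjusted p under 0.05). The smallest unadjusted p of a member in these tests was 0.224.

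**Figure D3:**
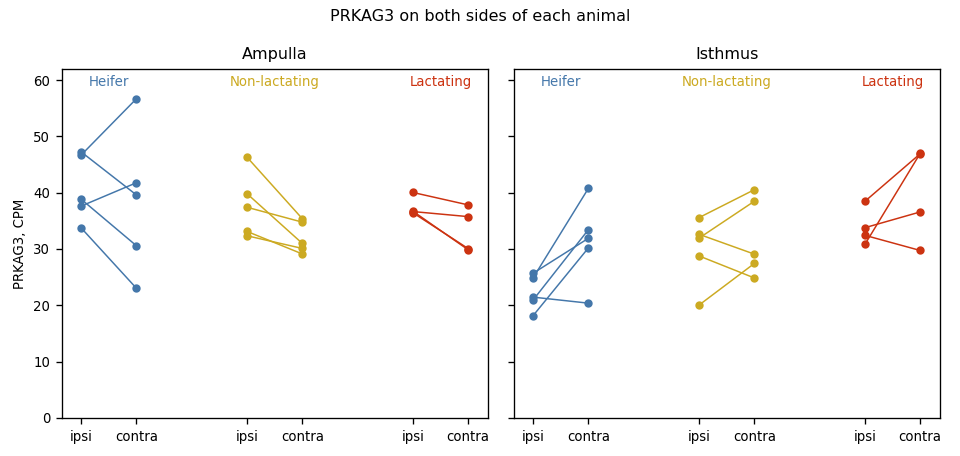
CPM of PRKAG3 (y axis, from 0) on the ipsilateral and contralateral side (x axis) of each animal, joined by a line, for ampulla (left panel) and isthmus (right panel) and coloured by metabolic group. In the isthmus 10 of 14 lines rise towards the contralateral side, and in the ampulla 12 of 14 fall.

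The PRKAG3 share of the summed PRKAG3 and PRKAG1 counts was also described. It is a share of counts, without correction for length, and serves only to compare conditions. The share was 69.1 ± 4.38% in the ipsilateral ampulla, 68.3 ± 6.0% in the contralateral ampulla, 65.7 ± 6.32% in the contralateral isthmus and 58.9 ± 6.16% in the ipsilateral isthmus (SD, n = 14 each). Without the doubted libraries the ipsilateral ampulla had 68.5 ± 4.47% (SD, n = 10). The lowest condition was the ipsilateral isthmus of heifers at 53.6 ± 5.50% (SD, n = 5), and the other 11 lay between 59.7 and 70.8%.

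The metabolic comparison asks whether lactation or calving leaves a mark on the epithelium. No member was called in any of the 12 pairwise comparisons, 3 in each of 4 tissues, nor in the 3 comparisons of isthmus counts summed over both sides per animal. Hardly any gene was, with 0.00730% of genes called when non-lactating cows were set against heifers in the ipsilateral isthmus, and 0% in the other 14 comparisons. With edgeR, between 497 and 2147 genes per comparison had an unadjusted p under 0.05. DESeq2 called 1 member in 1 of these comparisons, which was PRKAG3 in the ipsilateral isthmus of lactating cows set against heifers (DESeq2 adjusted p = 0.0239). The 0% above is edgeR's share, and the share of all genes that DESeq2 called is not given here. The paper's own DESeq2 run found differentially expressed genes in this comparison and named PRKAG3 among those up-regulated in lactating cows. The call is therefore not new. It rests on the same animals and need not set PRKAG3 apart from genes at large.

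In that comparison PRKAG3 read 32.4, 38.5, 33.8 and 30.8 CPM in lactating cows A to D and 24.9, 18.2, 21.5, 21.0 and 25.7 in heifers A to E. The groups did not overlap. The log2 fold change was 0.63 (SE 0.14, unadjusted p = 9.23e-04), and edgeR's adjusted p was 0.253, which leaves the difference uncalled among 13840 genes. The summed epithelial markers were at 1200 to 1780 CPM in these lactating cows and 1540 to 1860 in the heifers, the smooth muscle markers at 29.6 to 78.3 and 47.9 to 93.8 CPM, and their part was not tested. Non-lactating cows A to E read 20.04, 28.8, 32.6, 35.6 and 31.9 CPM. All but cow A exceeded every heifer, and against heifers the log2 fold change was 0.44 (SE 0.17, edgeR adjusted p = 0.334). These comparisons share the heifers. With both sides of the isthmus summed, lactating cows exceeded heifers by 0.51 on the log2 scale (SE 0.14, edgeR adjusted p = 0.204). In the ipsilateral ampulla PRKAG3 was at 37.5 ± 1.73 CPM in lactating cows (SD, n = 4) and 40.8 ± 5.92 in heifers (SD, n = 5), a difference within the SD of the heifers. Leaving out the doubted libraries gave 37.8 ± 1.94 CPM (SD, n = 3) and 41.3 ± 6.71 (SD, n = 4), and no member was called by edgeR in the 3 metabolic comparisons of that tissue.

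PRKAB1 followed another order in the ipsilateral isthmus. Non-lactating cows A to E read 38.8, 47.3, 47.1, 49.3 and 44.8 CPM, lactating cows A to D 37.9, 40.4, 26.6 and 30.3, and heifers A to E 24.4, 39.2, 25.4, 36.9 and 43.7. Non-lactating cows were the highest group, overlapping with both others. They exceeded heifers by 0.44 on the log2 scale (SE 0.17, edgeR adjusted p = 0.325), and lactating cows were below them by a log2 fold change of -0.42 (SE 0.15, edgeR adjusted p = 0.798). With both sides summed these values were 0.32 (SE 0.14) and -0.33 (SE 0.10). STK11 was lower in lactating cows than in heifers in the summed isthmus, with a log2 fold change of -0.25 (SE 0.10, unadjusted p = 0.0340, edgeR adjusted p = 0.313). No other member reached an unadjusted p of 0.05 between metabolic groups.

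The genes most like each member over the 56 libraries were found by Pearson's r of log2 CPM. These libraries share animals, regions and sides, and the values are a description. PRKAA1 ran with ARHGAP5 (r = 0.880), RNF168 (0.860) and USP47 (0.859), and centring on the 12 conditions left r at 0.896 for ARHGAP5. PRKAA2 ran with COL22A1 (0.781), RCOR2 (0.741) and VIPR2 (0.739), where centring lowered r to 0.585, 0.380 and 0.438. For PRKAB1 the nearest gene was LEPREL2 (0.733), for PRKAG3 PREX2 (0.707) and for STK11 BCR (0.785). PRKAG1 and PRKAB2 had no near neighbour, at 0.566 with RBM14 and 0.565 with THAP11, and for PRKAB2 Spearman's rho with THAP11 was only 0.174. The members did not run together. The strongest pair was PRKAA1 and PRKAB1 at r = -0.491, followed by PRKAG3 and STK11 at -0.376 and PRKAA2 and PRKAB1 at -0.352.

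Around the kinase, 89 pathway genes in 9 lists were examined, of which 86 had a row. Between regions, 43 of 82 tested genes were called on the ipsilateral side (26 higher and 17 lower in the isthmus, 52.4%) and 40 of 81 on the contralateral side (24 higher and 16 lower, 49.4%), close to the shares over all genes given above. The called genes at large were split evenly, with 3739 higher and 3942 lower on the ipsilateral and 3305 and 3382 on the contralateral side. Without the doubted libraries 43 of 82 pathway genes were again called on the ipsilateral side (27 higher and 16 lower), and 40 of these 43 had been called with them. No list was tested against other genes, and the counts per list are a description. The median log2 fold change of these genes was 0.06 and 0.04.

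Among the 7 upstream genes other than STK11, CAMKK2 was lower in the isthmus by log2 fold changes of -0.87 (SE 0.19) and -0.81 (SE 0.19) on the ipsilateral and contralateral side, and CAMKK1 by -1.08 (SE 0.15) and -0.74 (SE 0.19). All 4 values were called by edgeR. STRADA was higher in the ipsilateral isthmus by 0.18 (SE 0.067, edgeR adjusted p = 0.0247) and was not called on the other side. CAB39 was called on neither, at 0.08 and -0.0011. PPM1E, a phosphatase that acts on AMPK, was lower by -0.86 (SE 0.099) and -0.85 (SE 0.10), both called.

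The AMPK-related kinases held 6 called higher and 2 called lower among 11 on the ipsilateral side, and 4 and 3 on the contralateral side. That is 8 and 7 of 11 called, where 50.3% and 43.5% of all genes were, in nearly equal numbers higher and lower. The ipsilateral counts without the doubted libraries were 5 and 1. MARK2, a polarity kinase, was higher in the isthmus by log2 fold changes of 1.19 (SE 0.097) and 1.17 (SE 0.13). SIK1, a salt-inducible kinase, was higher by 1.66 (SE 0.15) and 1.81 (SE 0.18). Of 13 enzymes of energy nucleotides, 6 were lower and 2 higher on the ipsilateral side and 5 and 2 on the contralateral side, so that 8 and 7 of 13 were called against the same shares of all genes. Without the doubted libraries 5 were lower and 2 higher on the ipsilateral side. The adenylate kinase AK5 was among those called higher, at 3.66 (SE 0.38) and 2.98 (SE 0.31). ADK, which turns adenosine into AMP, was lower in the contralateral isthmus (-0.91, SE 0.11, edgeR adjusted p = 4.65e-08) and not called on the ipsilateral side (-0.05, SE 0.11).

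The AMPK targets were mixed. ACACA, the acetyl-CoA carboxylase of fatty acid synthesis, was called in neither region comparison, at -0.13 and -0.11. ACACB, the mitochondrial form, was lower in the ipsilateral isthmus (-0.87, SE 0.35, edgeR adjusted p = 0.0383) and stood at 0.04 on the other side. CPT1A, which brings fatty acids into mitochondria, was higher by 0.51 (SE 0.16) and 0.52 (SE 0.12), both called. PPARGC1A, a coactivator of mitochondrial genes, was higher by 1.58 (SE 0.25) and 0.77 (SE 0.20), both called.

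**Figure D4:**
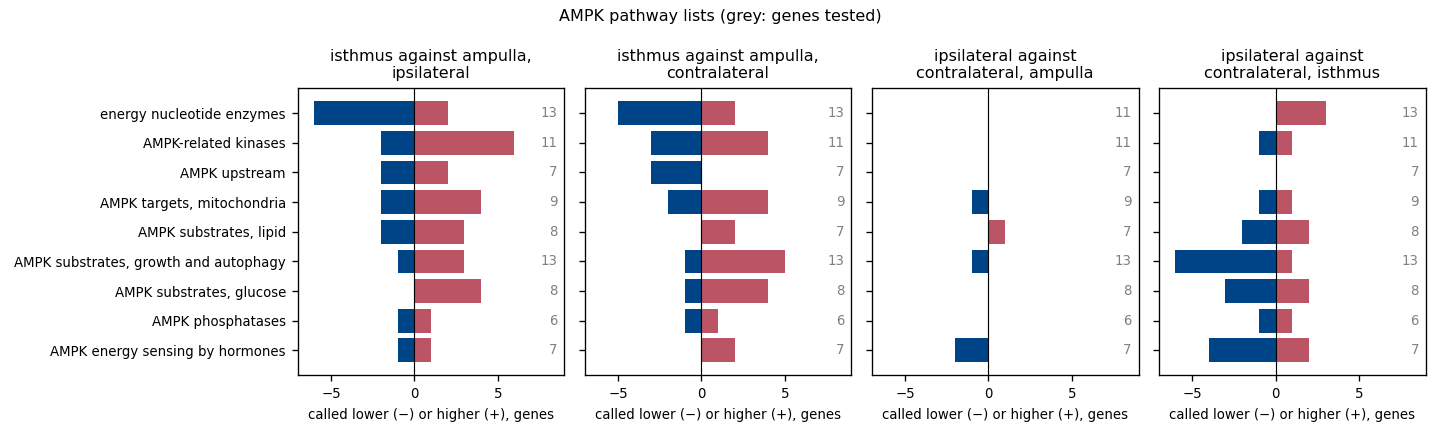
Number of genes called lower (blue, to the left of 0) or higher (red, to the right) in 9 AMPK pathway lists (y axis), for isthmus against ampulla on each side and for ipsilateral against contralateral in each region, with the number tested in grey. Between regions every list holds called genes, and between sides the ampulla holds 5 and the isthmus 31.

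Between sides, 31 of 82 pathway genes were called in the isthmus (13 higher and 18 lower near the CL, 37.8%) and 5 of 79 in the ampulla (1 higher and 4 lower, 6.33%). Over all genes the shares were 28.4% (2237 higher and 2031 lower) and 4.99% (393 and 369), so that genes at large also had the larger share in the isthmus. In the isthmus the insulin receptor substrates IRS2 (-1.30, SE 0.12) and IRS1 (-1.01, SE 0.13), the insulin receptor INSR (-0.47, SE 0.061) and FNIP1, a folliculin partner that binds AMPK (-0.52, SE 0.055), were lower on the ipsilateral side. GYS1, the glycogen synthase, was higher by 0.87 (SE 0.12). All 5 were called by edgeR, and these were the genes with the smallest p among the lists. ACACB was also lower near the CL (-1.05, SE 0.32, edgeR adjusted p = 0.0148), whereas ACACA, CPT1A, PPARGC1A, CAMKK2, STRADA and CAB39 were not called. In the growth and autophagy list 7 of 13 were called, 6 lower and 1 higher, where 28.4% of all genes were called, and the direction of the list was not tested. None of the 7 upstream genes was called.

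In the ampulla the 4 genes called lower near the CL were IRS2 (-0.82, SE 0.18), IRS1 (-0.35, SE 0.089), FNIP1 (-0.39, SE 0.098) and PPARGC1A (-0.65, SE 0.19). Only 1 of 80 pathway genes was called there without the doubted libraries (1.25%, against 2.43% of all genes), which was IRS2 at -0.68 (SE 0.19, edgeR adjusted p = 0.0492), and all 5 genes kept their direction. No pathway gene was called in the metabolic comparisons, where the share over all genes was at or near 0. In single groups, 14 of 78 pathway genes passed in the side comparison of the heifer isthmus (17.9%), 6 of 79 in that of non-lactating cows (7.59%) and 0 of 79 in that of lactating cows. Over all genes these shares were 10%, 5.11% and 0.187%. Whether these shares differ was not tested.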

How the data were processed

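The authors used TopHat2 (version 2.0.13) and HTSeq (version 0.6.1) on reads of stranded libraries. Mapping was to Btau_4.6.1, and counting was strand-specific. The deposited values are raw counts per gene, neither normalized nor filtered. The 5 summary lines were left out, and genes held 8.66 to 13.7% of the counted alignments. Each column was given its condition by name. The animal numbers in the column names give the pairing by animal, except for the pair of columns numbered for another group. These were taken as non-lactating cow C and lactating cow B, their nearest profiles (r = 0.727 and 0.828, against 0.104 and 0.144 with their own numbers). With that pair left out, deviations from the group means of the same animal correlated with a median r of 0.209 to 0.389 over 10616 genes. Single values ran from -0.0429 to 0.662. Any pair of libraries of a condition differed by more than sampling noise (104 pairs, chi-square per degree of freedom at least 5.54).

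Counts were tested in R (version 4.3.3) with edgeR (4.0.16), with TMM scaling, filterByExpr at a minimum count of 10 and the quasi-likelihood F test, for 28 comparisons. SE is the log2 fold change over the root of F. Log2 CPM used a prior count of 2. DESeq2 (1.42.0), RLE factors, no filter, robust dispersions, the animal block, left-out animals and left-out doubted libraries were the alternatives, and the procedure was tested on simulated data. Leaving out the doubted libraries was also applied to the pathway counts, the PRKAG3 share and the levels, a choice made after seeing the data. The members and lists were chosen with earlier results of these data known. Named genes are all members, up to 5 pathway genes with the smallest p per comparison described, and ACACA, ACACB, CPT1A, PPARGC1A, CAMKK2, STRADA and CAB39. 1 gene that this rule names is not reported here.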

Additional observations from a re-analysis of the deposited data

Results flagged for a closer look

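In 5 of 84 groups of 4 or 5 libraries (7 genes in 12 conditions), the highest or lowest library stood apart from the others by Dixon's criterion, which chance meets in about 1 group in 20. PRKAA1 reached 167.5 CPM in the ipsilateral isthmus of non-lactating cow A, where the next value was 121.3. PRKAA2 was at 13.1 CPM in the contralateral ampulla of lactating cow A, with the nearest at 17.0. PRKAB2 was at 7.28 CPM in the ipsilateral ampulla of non-lactating cow D, with the nearest at 5.37. PRKAG3 was at 40.04 CPM in the ipsilateral ampulla of lactating cow C, with the nearest at 36.7. STK11 was at 66.0 CPM in the contralateral ampulla of non-lactating cow E, with the nearest at 38.0. The 5 libraries came from 5 different animals.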

How the results depend on the processing

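The calls of STK11 and PRKAG3 between regions on the ipsilateral side and of PRKAA2 and PRKAB1 on the contralateral side were made under every alternative, each of the 14 left-out animals included, and no fold change followed here turned its direction. The number of members called between regions was 3 on either side. On the ipsilateral side it was 2 with no filter, 4 without the 4 doubted libraries and 2 to 4 over the left-out animals, and on the contralateral side 2 to 3 over the left-out animals. The number moved between 0 and 1 in 4 other comparisons. For lactating cows against heifers in the ipsilateral isthmus DESeq2 called 1 (edgeR 0). In the isthmus summed per animal, both sides taken as separate libraries gave 1 for the same groups (summed 0), where each animal enters as a pair of libraries. Between sides in the pooled isthmus no filter gave 0 (with the filter 1), and leaving out an animal gave 0 to 1. Between sides in the isthmus of heifers, leaving out an animal gave 0 to 1, and the 1 was PRKAG3 without heifer C (edgeR adjusted p = 0.0487). The cause was not tested. Apart from the fits without the doubted libraries, shares over all genes are not given for these alternatives. Whether the member counts moved with genes at large can therefore not be told. With the replicate block, which pairs the libraries of an animal, 3, 3 and 1 members were called in the pooled region comparisons and the pooled isthmus side comparison, as without it, and it changed no other call, PRKAG3 staying at -0.28 (edgeR adjusted p = 0.0217) between sides of the isthmus. PRKAB2 lost its ipsilateral region call with no filter (edgeR adjusted p = 0.0778). Levels on plain library totals stayed within 1 SD in 84 of 84 gene and condition groups. The depth limits PRKAB2 most, whose lowest library held 1 count.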
